A study of Mus musculus with 6 samples.

Results

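Mpo, Elane, Ctsg and Prtn3 encode enzymes stored in the primary (azurophil) granules of neutrophils, and their transcripts are 4 of the 23538 genes counted in sorted mouse bone marrow progenitors. Each of the 4 was found by its symbol, and each symbol stood on 1 line of every table. The study compared progenitors of mice carrying 1 mutant copy of Mof, labelled Mof -/+ and called het here, with progenitors of wild-type mice. Mof, listed as Kat8, encodes an acetyltransferase of histone H4. Sorts of 15 bone marrow cells were frozen and turned into CEL-Seq2 libraries, a method that counts transcripts by a tag at the 3′ end, so that a level does not grow with transcript length. There were 36 libraries, 3 for each of 6 populations in each of 2 genotypes.

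The populations were defined by surface proteins. CMP, the common myeloid progenitors, and MEP, which give megakaryocytes and red cells, were both lineage-negative, Sca-1-, cKit+ and IL7r-. CMP were CD34+ with low CD16/32, and MEP were CD34- and CD16/32-. The other 4 populations lay in the LSK gate (lineage-negative, Sca-1+, cKit+). Haematopoietic stem cells (HSC) were CD34-, Flt3-, CD48- and CD150+. The multipotent progenitors MPP2, MPP3 and MPP4 were all CD34+ and CD48+. MPP2 was Flt3- and CD150+, MPP3 was Flt3- and CD150-, and MPP4 was Flt3+ and CD150-. The part of Mof that the mutant allele lacks, the age of the mice and the number of animals behind the sorts were not given in the sources used here.

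Library totals ran between 1577 and 123765 counts with a median of 41227, and 6 libraries had fewer than 15000. These were het HSC replicate 2, the 3 wild-type MPP2 libraries and wild-type MPP3 replicates 1 and 2. At these totals a count of 0 says little about 1 library, and intervals and limits given here cover counting error only. Column names place the libraries in 6 samples, each of a single genotype, which are read here as sequencing pools. Genotype and pool therefore cannot be told apart. On this reading CMP and MEP of a genotype shared a pool, as did the 3 MPP populations. Nothing in the labels ties the replicates to different animals, and the p-values given here rest on the spread between libraries, which may be technical. Kat8 itself had 11 counts in 9 of 18 het libraries (9.86 CPM, counts scaled to the same total in every library) and 12 counts in 7 of 18 wild-type libraries (18.3 CPM), with 0 to 4 counts a library, too few to check the genotype labels. Wild-type MEP replicate 3 stood apart from its group in 3 of the 4 genes. Genotype differences in MEP are given with and without it, and so is Elane in wild-type CMP against MEP. Other values of wild-type MEP include it.

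Neutrophil precursors make primary granules at the promyelocyte stage, and they switch their genes off again before secondary granules form. Myeloperoxidase (Mpo) is a haem enzyme that turns hydrogen peroxide and chloride into hypochlorous acid. Neutrophil elastase (Elane), cathepsin G (Ctsg) and proteinase 3 (Prtn3) are related serine proteases that are cut into their active form by cathepsin C (Ctsc) and stored on serglycin (Srgn). Their transcripts appear in committed granulocyte-monocyte precursors and are commonly used to mark the neutrophil branch in early progenitors. The ETS factor PU.1, C/EBP factors, Myb and RUNX factors are known regulators of these genes.

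In the mouse genome (build GRCm38.p6, RefSeq) Prtn3 and Elane are neighbours on chromosome 10, on the plus strand, at chr10:79879667-79883174 and chr10:79886312-79888216, with 3137 bases between them. Mpo lies on chromosome 11, on the plus strand, at chr11:87793784-87804412, and Ctsg on chromosome 14, on the minus strand, at chr14:56099885-56102574. In the GENCODE vM21 annotation an antisense gene, Gm11505, overlaps Mpo, and whether strand was used in the counting was not given in the sources used here. No other GENCODE gene overlapped the RefSeq spans of the other 3. Some of the nearest protein-coding genes had no counts at all. Cfd, 2636 bases beyond Elane, had 0 counts in the 36 libraries, and so had the peroxidase gene Lpo, 2015 bases beyond Mpo, and the granzyme gene Gzme, 15044 bases from Ctsg. Mcpt8, a mast cell and basophil protease gene 14385 bases from Ctsg on the other side, had 45 counts in 10 libraries. Med16, 6489 bases from Elane, was counted in all 36 libraries, with 564 counts.

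The stretches upstream of the 4 start sites are shown because the 4 genes were high in the same population and all 4 windows hold the letters AGGAAGT, which contain the GGAA core bound by ETS factors. Capitals mark AGGAAGT. Each stretch begins 250 bases before the RefSeq start and stops before the first GENCODE vM21 exon met from there. A GENCODE transcript of Prtn3 begins further upstream, at position 79874476, so that the Prtn3 stretch lies within that longer gene model. The coordinates follow in the same order.
Mpo: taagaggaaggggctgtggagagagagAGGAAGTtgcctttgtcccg
Elane: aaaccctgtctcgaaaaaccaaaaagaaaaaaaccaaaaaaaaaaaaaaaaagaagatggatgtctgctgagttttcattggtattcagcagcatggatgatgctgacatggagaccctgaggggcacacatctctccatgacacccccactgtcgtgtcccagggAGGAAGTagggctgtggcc
Ctsg: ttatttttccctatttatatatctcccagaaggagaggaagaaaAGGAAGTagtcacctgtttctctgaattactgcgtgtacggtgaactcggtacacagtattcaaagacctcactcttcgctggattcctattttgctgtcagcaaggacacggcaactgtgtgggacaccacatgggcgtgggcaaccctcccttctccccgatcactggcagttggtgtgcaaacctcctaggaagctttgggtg
Prtn3: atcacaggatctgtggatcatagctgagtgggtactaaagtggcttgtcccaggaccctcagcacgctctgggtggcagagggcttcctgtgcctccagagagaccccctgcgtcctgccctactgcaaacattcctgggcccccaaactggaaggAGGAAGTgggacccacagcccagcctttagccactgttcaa
The Mpo stretch is chr11:87793534-87793580 on the plus strand, and the Elane stretch is chr10:79886062-79886246 on the plus strand. The Ctsg stretch is chr14:56102575-56102824 on the minus strand, and the Prtn3 stretch is chr10:79879417-79879613 on the plus strand. AGGAAGT began 223 bases before the RefSeq start in Mpo, 84 in Elane, 206 in Ctsg and 94 in Prtn3, each time on the strand of the gene. It was chosen after the letters of these windows were seen. Searched on both strands, it was present in 7.69% of the 32851 windows of 250 bases before RefSeq starts. The Myb letters AACGG were in 2 of the 4 windows (Elane, Prtn3) and in 14.5% of all windows. The RUNX letters TGTGGT were in 1 (Ctsg) and in 4614 of all windows. The letters TATAA were in 3 (Elane, Ctsg, Prtn3) and in 22.8% of all. The C/EBP letters TTNNGNAA were in 0 of the 4 and in 36.8% of all. None of these matches overlapped AGGAAGT in the 4 windows. The search covered the full 250 bases, of which the stretches printed here are a part, and a match is a run of letters, not a bound site.

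Mpo was the most abundant of the 4 in CMP, and in both genotypes CMP stood above every other library. Mpo had 2109, 1582 and 3434 CPM in het CMP, from 130, 141 and 425 counts. The other 15 het libraries ran from 0 to 544 CPM, and 9 of them had at least 1 count. The lowest het CMP library was therefore above all of the others, the highest of which was het MEP replicate 1. In wild type, Mpo had 1795, 1426 and 1623 CPM in CMP and 0 to 918 CPM in the other 15 libraries, with a median of 34.4 CPM. Again the ranges did not overlap, and the highest of the others was wild-type MEP replicate 3. The share of all genes whose CMP range lies above the other libraries is not given here. Statements on overlap for the 4 genes are therefore descriptions. CMP averaged 2375 ± 954 CPM in het and 1615 ± 185 CPM in wild type (SD, n = 3 each).

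Among the remaining populations Mpo was next in MEP and MPP3 and near the limit of detection in HSC and MPP2. Mean Mpo was 431 ± 128 CPM in het MEP and 402 ± 450 CPM in wild-type MEP (SD, n = 3 each). It was 321 ± 179 CPM in het MPP3 and 233 ± 202 CPM in wild-type MPP3. MEP and MPP3 ranges overlapped in both genotypes. MPP4 had 69.6 ± 60.4 CPM in het and 17.4 ± 30.2 CPM in wild type, and MPP2 16.1 ± 27.9 CPM in het and 27.0 ± 46.8 CPM in wild type, with ranges that overlapped. In HSC, Mpo had 0 of 74916 counts in het, which allows up to 40.0 CPM, and 1 of 94749 counts in wild type (exact 95% Poisson interval 0.267 to 58.8 CPM). Pooled over libraries, het CMP had 2535 CPM and was thus at least 63.3-fold higher in Mpo than het HSC, with the limit set by 3 counts over the HSC group. Without het HSC replicate 1, the deepest of the 3, the bound was 19.5-fold.

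CMP minus the mean of the other 5 populations was tested for every gene with limma on log2(value + 1), where counts had been scaled to a common total of 41227 per library and adjusted p-values are Benjamini-Hochberg values over all 6501 genes tested. In het CMP, 4 genes passed an adjusted p of 0.05, or 0.0615% of genes, and these were Mpo, Ctsg, Elane and Prtn3. In wild-type CMP, 11 genes passed (0.169%), 3 of them among the 4. Mpo was higher by 4.55 log2 units in het (SE 0.64, adjusted p = 1.09e-05) and by 4.50 in wild type (SE 0.64, adjusted p = 1.50e-05). Both calls held when each of the 18 libraries of the genotype was left out in turn, with values between 4.25 and 4.80 in het and between 4.23 and 4.67 in wild type. In these sorts of whole cells, more expressing cells and more RNA per cell cannot be told apart. The mean of log values weighs libraries at 0 heavily, and the ratio of mean CPM was 14.2 in het and 11.7 in wild type.

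Among the serine proteases, cathepsin G (Ctsg) correlated most with Mpo over the 30 libraries of at least 15000 counts. On a log scale Pearson r was 0.839, against 0.715 for Elane and 0.697 for Prtn3, which is a description. It did not hold in each population, as het MPP3 had 64 counts of Mpo, 40 of Prtn3 and 3 of Ctsg. Ctsg had 584, 314 and 873 CPM in het CMP, from 36, 28 and 108 counts, and 0 to 148 CPM in the other het libraries. In wild type it had 323, 528 and 314 CPM in CMP and 0 to 384 CPM in the other libraries. The het ranges did not overlap, while in wild type 1 library, MPP3 replicate 3, lay above the lowest CMP library. Ctsg was higher in CMP by 3.82 log2 units in het (SE 0.55, adjusted p = 1.09e-05) and by 3.36 in wild type (SE 0.55, adjusted p = 0.000288). Both calls held in 18 of 18 fits that left out 1 library. Without the libraries under 15000 counts the wild-type value was 2.51 (adjusted p = 0.00396), since MPP2 then drops out and MPP3 rests on replicate 3.

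Outside CMP and MEP, Ctsg was rare. HSC, MPP2, MPP3 and MPP4 together gave 5 counts of 600920 in het and 9 of 254098 in wild type, 8 of these in wild-type MPP3 replicate 3. The MEP libraries all had Ctsg, with 117, 79.9 and 148 CPM in het and 17.6, 57.1 and 127 CPM in wild type. The highest wild-type MEP library thus lay within the het MEP range and the other 2 below it.

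Neutrophil elastase was counted in the fewest libraries of the 4 genes, 6 of 18 in het and 5 of 18 in wild type. It was also the least abundant of the 4 in CMP on average, so that its zeros elsewhere say the least. Elane had 373, 67.3 and 533 CPM in het CMP, from 23, 6 and 66 counts. In the 3 het MEP libraries it had 1, 4 and 1 counts, at most 53.3 CPM. It had 0 of 600920 counts in the 12 het HSC and MPP libraries, which allows up to 4.99 CPM. Pooled het CMP, at 346 CPM, was at least 69.3-fold higher than those 12 libraries, and at least 38.5-fold higher without het CMP replicate 3. For Ctsg, pooled het CMP was 75.3-fold above the same 12 libraries. In wild type, Elane had 413, 277 and 78.5 CPM in CMP, and 1 of 254098 counts in the 12 HSC and MPP libraries. Both genotypes therefore had Elane counts at or near 0 in the LSK populations, and 1 library of low Elane among the 3 CMP libraries. In wild type, however, 0 counts allow up to 88.3 CPM in MPP2 and 97.1 CPM in MPP3, above the lowest CMP library. Pooled wild-type CMP, at 241 CPM, was at least 2.72-fold higher than MPP2 and 2.48-fold higher than MPP3. Without MPP3 replicate 3 the MPP3 bound was 0.807-fold, which sets no difference.

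Wild-type MEP went against the pattern of low Elane outside CMP through 1 library. Elane had 0, 0 and 781 CPM in the 3 wild-type MEP libraries, from 0, 0 and 80 counts, so that replicate 3 exceeded all 6 CMP libraries. CMP minus the others was 3.30 log2 units in het (SE 0.57, adjusted p = 0.000612) and 2.89 in wild type (SE 0.57, adjusted p = 0.00556). Without het CMP replicate 1 or 3 the het adjusted p was 0.0831 or 0.242, and without wild-type CMP replicate 1 or 2 the wild-type one was 0.344 or 0.141. Fits without each of the other libraries kept the call.

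Prtn3, the protease gene next to Elane, was the one of the 4 with more than 1 count in stem cells of either genotype. It had 617, 808 and 1584 CPM in het CMP and 341, 502 and 798 CPM in wild-type CMP. The other het libraries reached at most 259 CPM, below every het CMP library. In wild type, MPP3 replicate 3 at 576 CPM and MEP replicate 3 at 527 CPM lay within the CMP range. Prtn3 was higher in CMP by 3.36 log2 units in het (SE 0.73, adjusted p = 0.0373). In wild type the difference was 2.91 (SE 0.73, adjusted p = 0.0903), which did not pass. The het call held in 7 of 18 fits that left out 1 library, with adjusted p-values from 0.0174 to 0.999. In wild type, 3 of 18 such fits passed, those without MPP3 replicate 3 (adjusted p = 0.0102), MPP4 replicate 2 (0.0471) or MEP replicate 3 (0.0153).

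In HSC, Prtn3 had 57.8, 0 and 186 CPM in het and 138, 142 and 0 CPM in wild type. These come from 7 counts in het and 9 counts in wild type. The same HSC libraries held 0 counts of Mpo, Elane and Ctsg in het, and in wild type 1 count of Mpo and 0 of the other two. Prtn3 thus made up 7 of 7 counts of the 4 genes in het HSC and 9 of 10 in wild-type HSC (exact 95% binomial interval 55.5 to 99.7%). In CMP its share was 24.1% in het and 20.3% in wild type. The shares were not tested against each other.

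**Figure D1:**
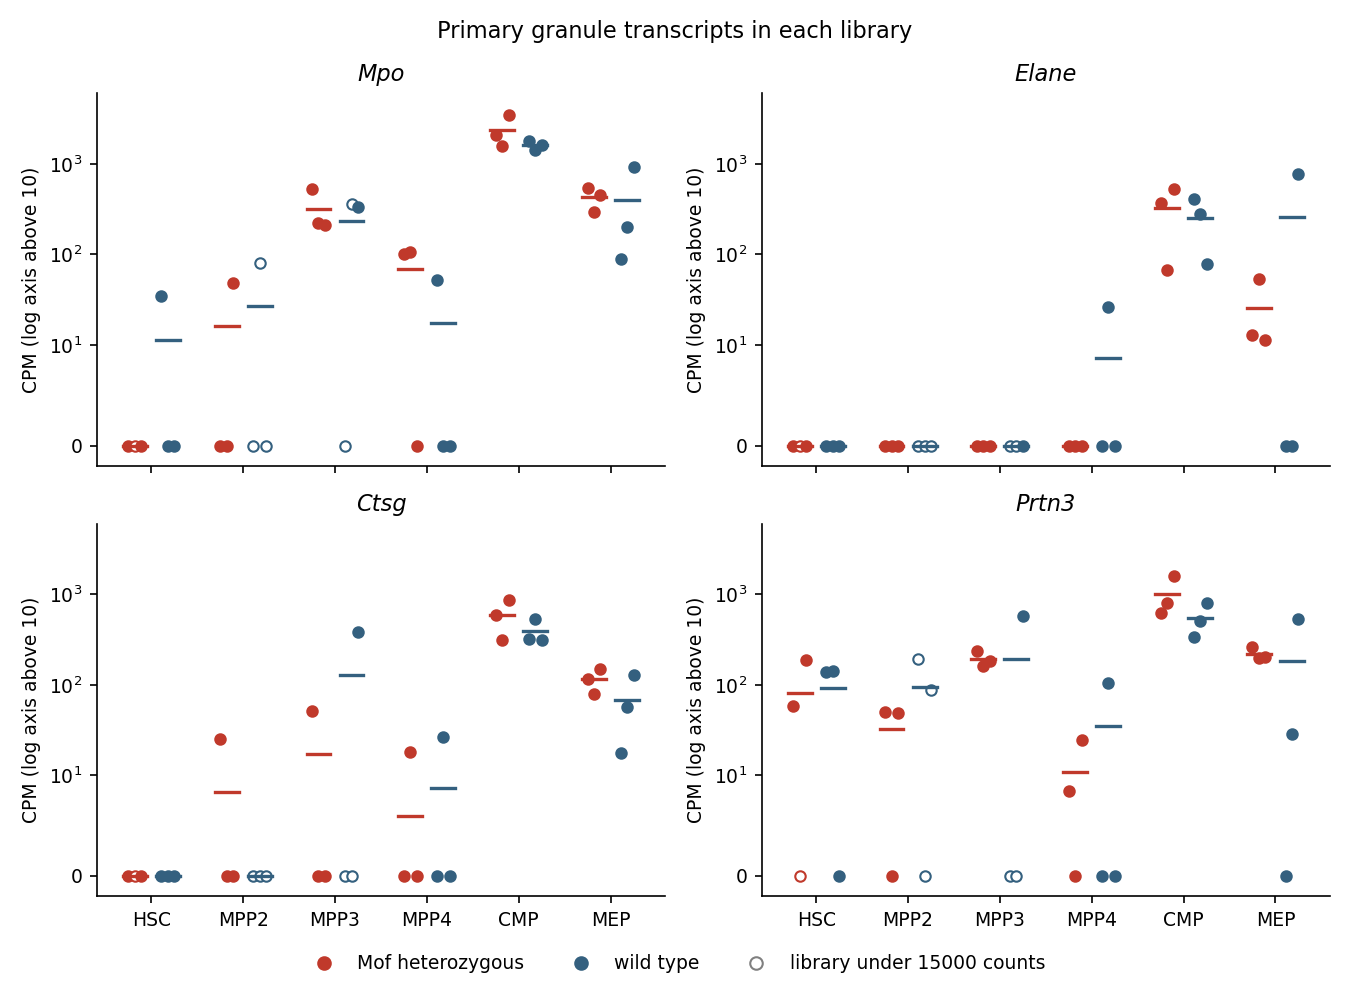
Level of each gene in CPM (y axis, logarithmic above 10) in the 6 populations (x axis). Points are libraries, red for het and blue for wild type, open where the library has under 15000 counts, and lines are means of 3. The highest values of Mpo are in CMP in both genotypes, Elane is at 0 in nearly all HSC and MPP libraries, and wild-type MEP replicate 3 is the one MEP library with high Elane, at 781 CPM.

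edgeR's quasi-likelihood test on the recovered counts, with 1633 genes tested, called all 4 genes higher in CMP in het, where 16 genes passed (0.98%), and in wild type, where 87 passed (5.33%). The 4 genes were kept in the edgeR tests whatever their level, while the other genes had to pass an expression filter. A gene can pass that filter through the group in which it is high, so these shares are not of all genes. For Prtn3 the edgeR difference was 3.76 log2 units in het (adjusted p = 2.47e-06) and 2.22 in wild type (adjusted p = 0.0113). An F test over all 6 populations, in the limma fit, called all 4 in het, where 0.754% of genes passed, and 3 in wild type, where 3.77% passed. The one that did not pass was Prtn3 in wild type (adjusted p = 0.0974). Prtn3 in wild type was thus called by edgeR but not by limma.

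Markers of other lineages differed in CMP as well. In wild-type CMP limma called Pf4, a platelet chemokine gene (3.16 log2 units, adjusted p = 0.0136), and Car1, an erythroid carbonic anhydrase gene (2.64, adjusted p = 0.0136), as higher. Car1 had 446 CPM on average there, against 1702 CPM in wild-type MEP. Of 9 erythroid genes tested in wild-type CMP, 1 rose and 1 fell, where 0.169% of all genes passed. Only 3 of these 9 differences were above 0, with a median of -0.73 beside 0.28 over all genes. Of 8 B cell genes, 1 fell there in limma, and in edgeR 2 fell in wild type and 1 in het. edgeR called Cpa3, a mast cell protease gene, as higher in both genotypes, by 2.67 in het (adjusted p = 0.0161) and 3.79 in wild type (adjusted p = 0.00179). It called Itga2b, the megakaryocyte integrin gene, by 1.99 in het (adjusted p = 0.0388) and 2.77 in wild type (adjusted p = 0.0113). In these edgeR tests 0.98% of genes passed in het and 5.33% in wild type. Of the lists, limma tested 3 of 7 megakaryocyte genes and 1 of 8 mast cell and basophil genes. The 7 megakaryocyte genes summed to 372 to 1428 CPM in het CMP and 484 to 916 CPM in wild-type CMP. They reached similar sums in HSC, up to 1022 CPM in het and 791 CPM in wild type. The 8 mast cell and basophil genes summed to 275 to 471 CPM in het CMP and 144 to 1399 CPM in wild-type CMP. In MEP they summed to 186 to 308 CPM in het and 85.7 to 107 CPM in wild type. The part of such cells in the CMP levels of the 4 genes was not tested.

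**Figure D2:**
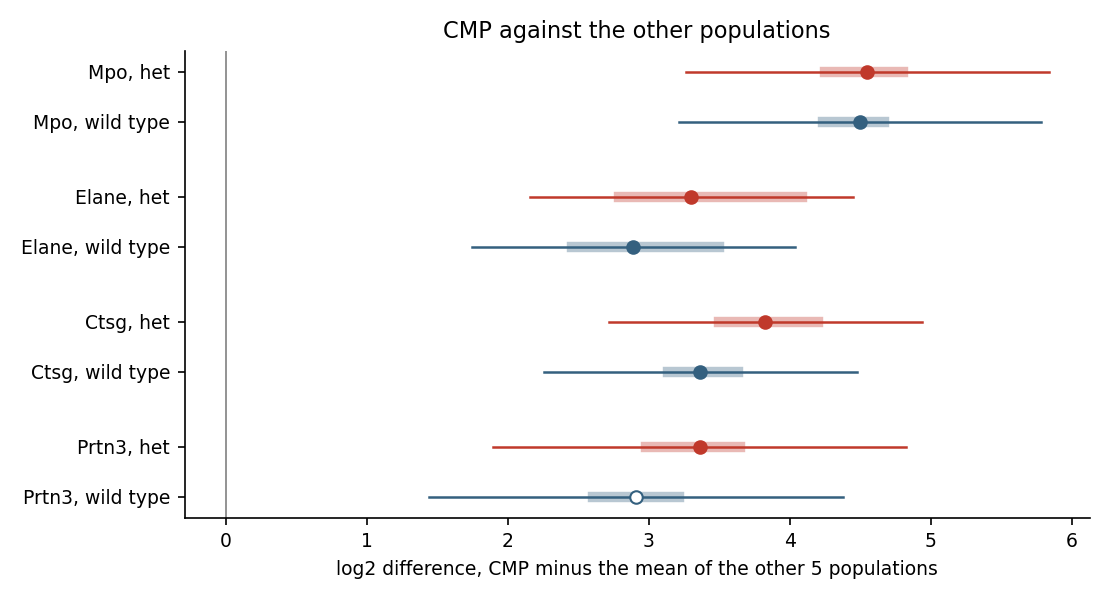
Log2 difference between CMP and the mean of the other 5 populations (x axis) for each gene and genotype, red for het and blue for wild type. Thin lines are 95% intervals, thick bars the range when 1 library is left out, and a filled point passed an adjusted p of 0.05. All 8 differences are above 0, and wild-type Prtn3, at 2.91, is the one open point.

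CMP was set against MEP, with which it shared a sequencing pool if the column names are read as above. All 4 genes were higher in CMP in limma in both genotypes, each with an unadjusted p under 0.05, but 0 of 6501 genes passed the adjusted threshold in het (0%, with 26 genes at an unadjusted p under 0.05) or in wild type (0%, with 84 such genes). In het the differences were 2.37 log2 units for Mpo, 2.54 for Elane, 2.06 for Ctsg and 1.96 for Prtn3. In wild type they were 2.51 for Mpo, 1.61 for Elane, 2.33 for Ctsg and 2.60 for Prtn3. Wild-type MEP replicate 3 held 94 of the 106 Mpo counts and 54 of the 55 Prtn3 counts of its group. edgeR called Mpo in het (2.44 log2 units, adjusted p = 0.0422), where 0.122% of genes passed, and none of the 4 in wild type, where 0.0612% passed. For wild-type Elane, edgeR gave a difference of -0.23, below 0, and limma without MEP replicate 3 gave 3.30 (adjusted p = 0.0521). The difference between genotypes in this contrast passed for 0 of 6501 genes in limma (0%, with 13 genes at an unadjusted p under 0.05) and 0 of 1633 in edgeR.

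MEP libraries of the 2 genotypes differed in a gene of the sort itself. Cd34, whose protein is absent by the MEP gate, had 16, 10 and 19 counts in het MEP and 0, 0 and 0 counts in wild-type MEP. This difference passed in limma (adjusted p = 0.0116) and in edgeR (adjusted p = 0.00774). For comparison, Cd34 had 387 ± 226 CPM in het CMP and 225 ± 60.8 CPM in wild-type CMP (SD, n = 3 each). The 9 surface genes of the sort summed to 719 to 969 CPM in het MEP and 317 to 527 CPM in wild-type MEP. The erythroid list summed to 3397 to 3552 CPM in het MEP and 2400 to 3702 CPM in wild-type MEP, against 477 to 811 CPM in het CMP and 766 to 1257 CPM in wild-type CMP. This sum was not particular to MEP. It was higher in wild-type HSC (8148 to 36758 CPM) and het MPP2 (6342 to 9729 CPM). It was lower in het HSC (521 to 1268 CPM) and het MPP3 (1213 to 1621 CPM). The remaining MPP groups ran from below to above the MEP sums. The part of Cd34-bearing cells in the MEP levels of the 4 genes was not tested.

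MPP3 was the LSK population with the most Mpo and Prtn3. In het MPP3, Mpo had 528, 225 and 210 CPM and Prtn3 had 238, 163 and 182 CPM, with counts in all 3 libraries. The het MPP2 libraries reached at most 48.2 CPM of Mpo and 50.3 CPM of Prtn3, below each het MPP3 library. MPP3 minus the mean of MPP2 and MPP4 was 2.65 log2 units for Mpo (limma adjusted p = 0.188, where 0.0615% of genes passed) and 2.38 for Prtn3 (adjusted p = 0.659). edgeR called both, with 2.89 for Mpo (adjusted p = 0.0124) and 3.13 for Prtn3 (adjusted p = 0.0475), and 2.63% of genes passed there.

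The wild-type MPP3 group rests on 1 library of usable depth. In wild-type MPP3, Mpo had 0, 362 and 336 CPM, Ctsg had 0, 0 and 384 CPM, and Prtn3 had 0, 0 and 576 CPM, with totals of 7304, 2764 and 20839 counts. The wild-type difference for Mpo had a 95% interval of 0.56 to 3.44 log2 units (adjusted p = 0.0963), and limma called none of the 4, while 2.92% of genes passed. edgeR called 0 of 1633 genes (0%), 135 of them at an unadjusted p under 0.05. With replicate 3 alone, assumed to vary like the other groups, the limma difference was 3.90 for Ctsg (adjusted p = 0.0159) and 3.26 for Mpo (adjusted p = 0.202). Elane had 0 of 210269 counts in het MPP3 and 0 of 30907 in wild-type MPP3, which allow up to 14.3 and 97.1 CPM.

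Mpo was lower in het HSC than in the mean of the other 5 het populations, by -3.32 log2 units (limma adjusted p = 0.00363, where 1.75% of genes passed). edgeR did not call it (adjusted p = 0.144), nor did limma without het HSC replicate 2, which has 1577 counts (adjusted p = 0.068). As all 3 het HSC libraries are at 0, the fitted value depends on the added 1 and is no bound.

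Mpo led in every CMP library, while the order of the other genes varied. Mpo had the most counts in 6 of 6 CMP libraries and made up 52.2 to 62.5% of the counts of the 4 genes, with a median of 57.2%. Prtn3 made up 11.9 to 29.1%, Ctsg 11.2 to 19.3% and Elane 2.43 to 14.4%. Prtn3 came next after Mpo in 4 of 6 CMP libraries. Elane had the fewest counts in 5 of 6 and Ctsg in 1. The share of Elane was lowest in het CMP replicate 2 (6 of 247 counts) and wild-type CMP replicate 3 (6 of 215 counts), and Ctsg was also lowest of its genotype in these 2 libraries, at 314 CPM in each.

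Wild-type MEP replicate 3 had a larger share of Elane, although its order of the 4 genes was that of wild-type CMP replicate 1. Its 241 counts were 94 of Mpo, 80 of Elane, 54 of Prtn3 and 13 of Ctsg, so that Elane made up 33.2% (exact 95% binomial interval 27.3 to 39.5%). The highest share in any CMP library was 14.4% (interval 9.34 to 20.8%), and in het MEP it was 8.51% (interval 2.37 to 20.4%). The 4 genes summed to 0.235% of all counts in that library, against 0.0106 and 0.0286% in the other wild-type MEP libraries. The corresponding sums were 0.277 to 0.642% in het CMP and 0.273 to 0.287% in wild-type CMP.

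**Figure D3:**
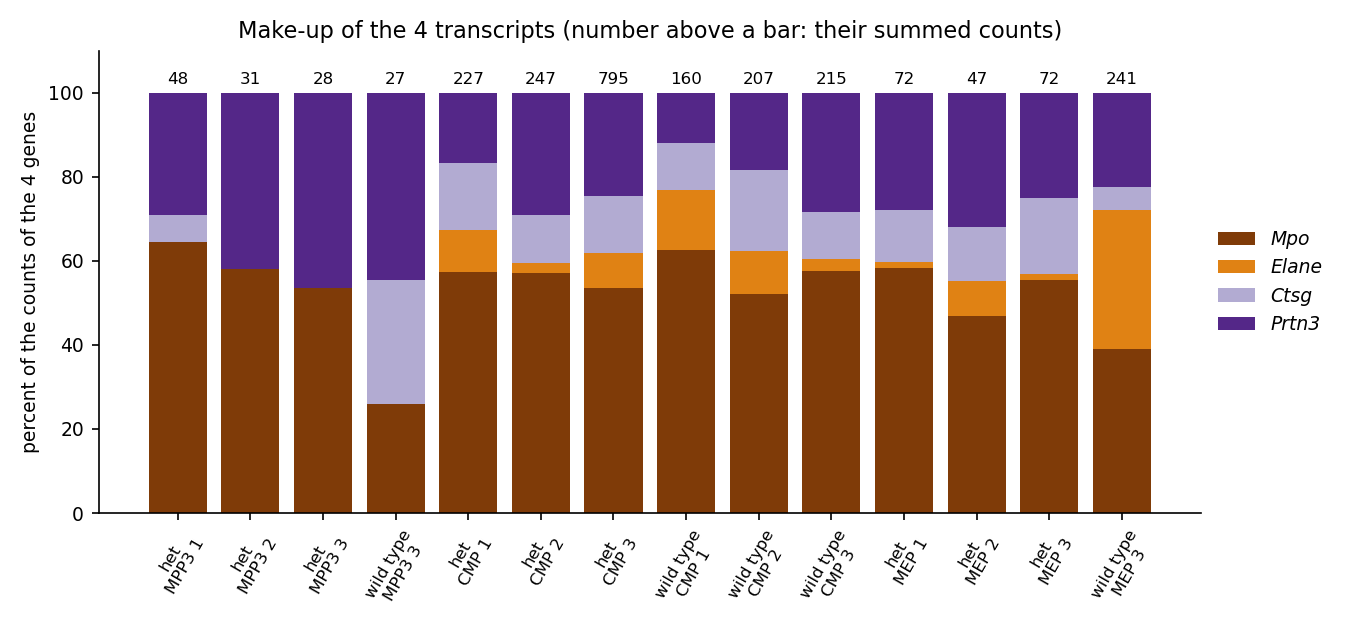
Share of each gene in the summed counts of the 4 (y axis, percent) for the 14 libraries with at least 20 such counts (x axis), with the sum above each bar. Mpo is the largest part in every CMP library, Elane is absent from the 4 MPP3 libraries shown, and Elane is largest, at 33.2%, in wild-type MEP replicate 3.

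Transcripts typical of mature neutrophils, cells that carry the granule proteins but have switched these genes off, were counted in some libraries although all 6 populations were sorted as lineage-negative. Their source was not tested. The 12 mature neutrophil genes found in the tables, led by S100a8 and S100a9, summed to more than 10000 CPM in 7 libraries, 1 of them het. These were het MEP replicate 3 (29785 CPM) and 6 wild-type libraries, with 34978 CPM in MPP4 replicate 3, 33432 CPM in MEP replicate 2, 21084 CPM in MPP3 replicate 1, 18972 CPM in MPP2 replicate 1, 13724 CPM in MPP3 replicate 3 and 11536 CPM in MEP replicate 3. Elane had 0 counts in 5 of them and 1 count in het MEP replicate 3. Some of these 5 are shallow, and 3 counts amount to 411 CPM in wild-type MPP3 replicate 1 and 290 CPM in wild-type MPP2 replicate 1. The other genes were not absent from all 7. The 4 genes summed to 2354 CPM in wild-type MEP replicate 3, 1296 CPM in wild-type MPP3 replicate 3 and 821 CPM in het MEP replicate 3. Among the remaining wild-type libraries, the sum was 286 CPM in MEP replicate 2 and 194 CPM in MPP2 replicate 1. It was 0 in wild-type MPP3 replicate 1 and MPP4 replicate 3. The 80 Elane counts stood in wild-type MEP replicate 3, where S100a8 had 473 counts, S100a9 426, Ngp 119, Camp 92, Lcn2 17 and Retnlg 2, while Ltf, Mmp8 and Mmp9 were at 0. In CMP, the list summed to 572 to 743 CPM in het and 707 to 6971 CPM in wild type. Over that wild-type range the sum of the 4 genes was 2733 to 2872 CPM. The part of the neutrophil transcripts in wild-type MEP replicate 3 and MPP3 replicate 3 was not tested.

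**Figure D4:**
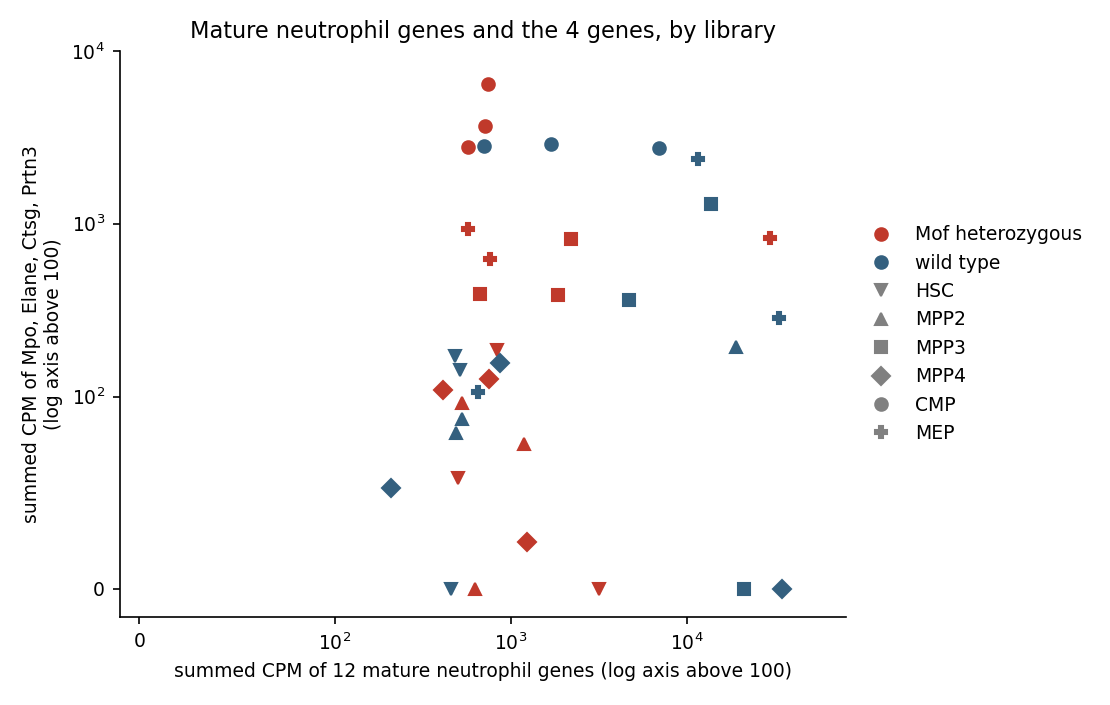
Summed CPM of the 4 genes (y axis) against summed CPM of 12 mature neutrophil genes (x axis), both logarithmic above 100. Each point is a library, red for het and blue for wild type, with a shape for each population. The 6 CMP libraries hold the highest sums of the 4 genes, and wild-type MPP4 replicate 3 and MPP3 replicate 1, with 34978 and 21084 CPM of neutrophil genes, have no counts of the 4. These libraries hold 18040 and 7304 counts, where 0 counts of a gene allow up to 166 and 411 CPM. Wild-type MEP replicate 3 and MPP3 replicate 3, with 11536 and 13724 CPM of neutrophil genes, have 2354 and 1296 CPM of the 4.

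The genotype question is whether 1 mutant copy of Mof changes these transcripts. Averaged over the 6 populations, het minus wild type was 0.49 log2 units for Mpo (95% interval -0.08 to 1.05, adjusted p = 0.539) and 0.46 for Prtn3 (-0.22 to 1.13, adjusted p = 0.672). It was 0.12 for Ctsg (-0.39 to 0.62, adjusted p = 0.925) and -0.14 for Elane (-0.75 to 0.47, adjusted p = 0.928). None of the 4 passed in this limma fit on the deposited values, where 5 of 6444 genes did (0.0776%), and none had an unadjusted p under 0.05. edgeR called none of the 4 either, where 31 of 1633 genes passed (1.9%). The intervals leave room for a change of about 1 log2 unit in Mpo and Prtn3, and the direction for Ctsg and Prtn3 was turned round by edgeR.

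Within CMP, where the 4 genes are best measured, all 4 were higher in het, each by less than the limma standard error of its difference. The differences were 0.43 for Mpo (SE 0.69), 0.14 for Elane (SE 0.75), 0.46 for Ctsg (SE 0.62) and 0.77 for Prtn3 (SE 0.83). All 95% intervals included 0. The limma fit uses 1 estimate of the spread per gene for all 12 groups. These errors and intervals therefore do not measure the spread of the CMP libraries alone. Het CMP replicate 3 had the highest value of each gene among the 6 CMP libraries, and the het and wild-type ranges overlapped for each of the 4. Adjusted p-values in CMP were 1 for each of the 4, with 0.031% of genes called.

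In MEP, Prtn3 was the one gene of the 4 with an unadjusted limma p under 0.05 in any population. It had 259, 200 and 205 CPM in het MEP and 0, 28.6 and 527 CPM in wild-type MEP. The het libraries lie close together and the wild-type ones on both sides of them. The difference was 1.72 (95% interval 0.07 to 3.37, unadjusted p = 0.0417, adjusted p = 0.925), and edgeR gave -0.059. Without wild-type MEP replicate 3 it was 3.21 for Prtn3 (adjusted p = 0.179), 1.56 for Mpo, 1.40 for Ctsg and 1.30 for Elane, none called. edgeR had an unadjusted p under 0.05 for 2 other differences, both lower in het. These were Elane in MEP (-3.44, unadjusted p = 0.0093, adjusted p = 0.566, where 0.122% of genes passed) and Ctsg in MPP3 (-3.54, unadjusted p = 0.00368, adjusted p = 0.196, where 0.184% passed). The Elane value rests on wild-type MEP replicate 3, which holds all 80 wild-type MEP counts, and the Ctsg value on wild-type MPP3 replicate 3, which holds all 8.

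The other populations gave no call among the 4 either. The share of genes called in limma was 0.0155% for HSC and 0.0776% for MPP2. It was 0.31% for MPP3, and 0.031% for MPP4 and for MEP. In MPP3, Mpo differed by 1.17 (adjusted p = 0.384) and Prtn3 by 1.24 (adjusted p = 0.437), where the wild-type libraries are shallow. The median difference over all genes in MPP3 was 0.56, and the values of the 4 genes stand beside that shift. The interaction of genotype with population passed for 0.031% of genes and for none of the 4 (adjusted p from 0.762 to 0.993).

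**Figure D5:**
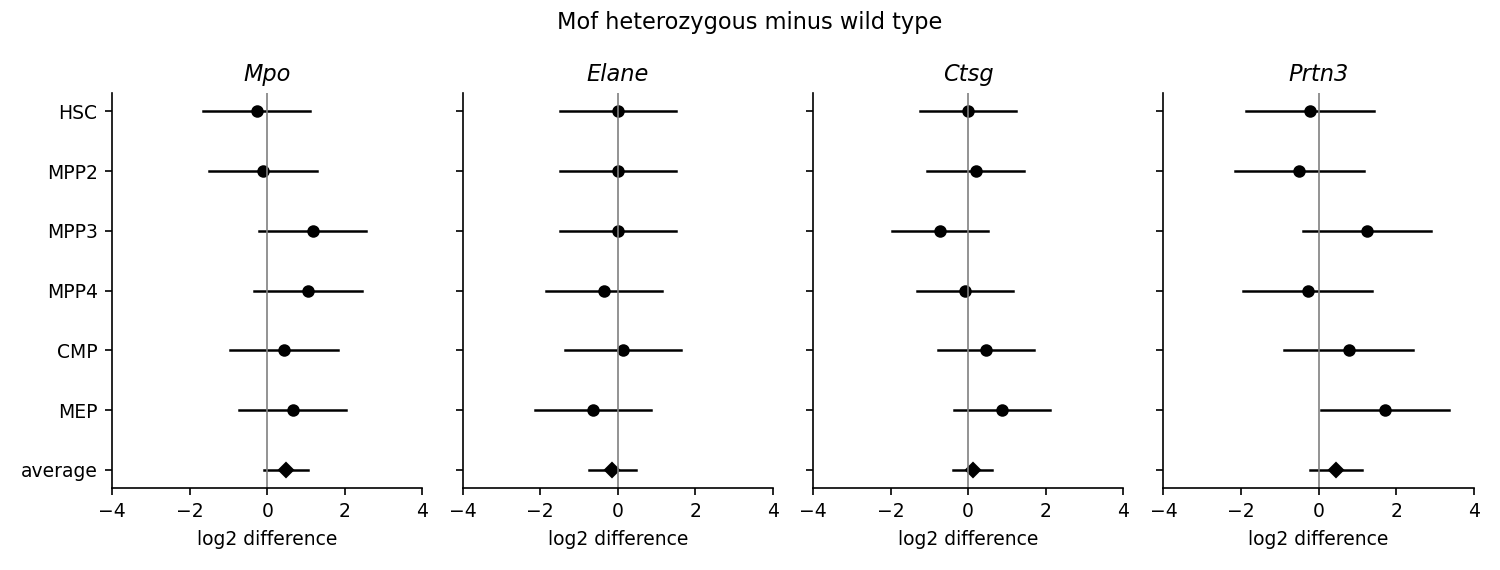
Log2 difference, het minus wild type (x axis), in each population and on average (y axis), 1 panel a gene. Points are limma estimates and lines 95% intervals. All intervals include 0 except that of Prtn3 in MEP, at 0.07 to 3.37.

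Genes that work with the 4 enzymes did not pass in limma. Of 15 granule companion genes (processing enzymes, chaperones, serglycin and other granule contents), 13 were tested, and 0 passed in limma for CMP against the others in either genotype. Their median difference was 0.70 in het and 0.21 in wild type, beside medians over all genes of 0.21 and 0.28. Ctsc, which activates the proteases, had a difference of 0.05 in het and -0.35 in wild type, and Srgn one of 1.03 in het and 1.16 in wild type, none of them called. The share of all genes called was 0.0615% in het and 0.169% in wild type. edgeR tested 9 of the companions and called 1 in het, where 0.98% of genes passed, Calr (1.47 log2 units, adjusted p = 0.0068), and 2 in wild type, where 5.33% passed, Calr (1.23, adjusted p = 0.0203) and Cd63 (2.73, adjusted p = 0.00411). Calr encodes calreticulin, the chaperone that binds the Mpo precursor, and Cd63 a membrane protein of primary granules. Prss57, another granule protease gene, had 35 counts in all libraries and Bpi 0, and neither was tested.

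Of 24 granulocyte-monocyte precursor genes, 20 were tested. In limma 0 passed in het, where 0.0615% of all genes did, and 1 passed in wild type, where 0.169% did, Cebpa (2.10 log2 units, adjusted p = 0.0176). Cebpa encodes the C/EBP factor needed for granulocyte commitment. It had 93.5 ± 36.6 CPM in het CMP and 106 ± 25.9 CPM in wild-type CMP (SD, n = 3 each), and its het difference was 1.49 (adjusted p = 0.998). edgeR tested 10 of the precursor genes and called 1, Plac8, in both genotypes (0.98% of all genes passed in het and 5.33% in wild type), by 1.42 in het (adjusted p = 0.00275) and 2.30 in wild type (adjusted p = 2.15e-06). Ms4a3, a marker of granulocyte-monocyte commitment, had a difference of 1.68 in het and 1.72 in wild type, neither called. The list's median difference was 0.46 in het and 0.44 in wild type. Between genotypes, 0 of 13 companion and 0 of 21 precursor genes passed on average in limma, where 0.0776% of all genes did, with medians of 0.12 and 0.03 beside 0.12 over all genes, and edgeR, where 1.9% of genes passed, called Plac8, at 0.93 (adjusted p = 0.0071).

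By level across the 12 group means, the 5 genes most like the summed 4 were Calr (Pearson r = 0.914), Rab44 (0.867), Abca2 (0.865), Rpl23 (0.849) and Snw1 (0.848). They were taken from 3950 genes of at least 50 CPM on average, and the group means share library depth and pools, so r is a description. Elane itself reached 0.827 against a sum that contains it. Calr had 1553 ± 285 CPM in het CMP and 1284 ± 209 CPM in wild-type CMP (SD, n = 3 each), and 762 ± 171 CPM in het MEP and 572 ± 173 CPM in wild-type MEP. In HSC, Calr had 357 ± 310 CPM in het and 497 ± 130 CPM in wild type. Rab44, a large Rab GTPase gene, had 211 ± 51.8 CPM in het CMP and 255 ± 48.0 CPM in wild-type CMP, and 0 counts in the 6 HSC libraries.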

How the data were processed

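CEL-Seq2 libraries of 15 sorted cells were read from 12 tables, 3 columns each, and each column was assigned to its population and genotype by its table and name. Reads were mapped with BWA 0.6.2-r126 to mm10, per the submitters' processing notes; the counter, the use of molecular identifiers and the annotation were not stated there. The deposited values are the authors' signal, gene counts over a size factor per library that appears to be set within a population. All were whole multiples of the smallest positive value in a library (100% within 0.01), so whole counts were recovered from them. Whether these are reads or molecules cannot be told. In the wild-type MEP table names were out of step after 6842 genes, and names were taken by position from another table. Levels are CPM without the 92 spike-in transcripts. Genotype was tested on the deposited values and populations on counts scaled to 41227, by limma 3.58.1 on log2(value + 1) over genes with a mean of at least 1, with Benjamini-Hochberg adjustment and a threshold of 0.05. A log2 fold change on this scale understates low genes. edgeR 4.0.16 (the genotype average called 31 of 1633 genes) and DESeq2 1.42.0 were alternatives, as were other scalings, filters and left-out libraries. Named genes were the 4 and, from fixed lists, those past the threshold; genes named with no call were chosen after their values were seen. The members and lists were chosen with earlier results of these data known. Upstream sequences are from RefSeq GRCm38.p6, where 4 of 4 genes matched. Simulated data with 200 changed genes were used to test the fits.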

Additional observations from a re-analysis of the deposited data

How the results depend on the processing

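Of 449 values of the 4 genes recomputed under an alternative, 407 kept their direction and their side of the threshold. They include 36 fits per gene of the genotype average with 1 library left out, which was called in none of them. The total therefore does not measure how stable the CMP calls are. With 1 library left out, the het CMP call of Prtn3 held in 7 of 18 fits. In CMP against the others, Mpo kept its call in both genotypes under every alternative run, and so did Ctsg wherever a p was given; DESeq2 gave none for Ctsg and Elane in het. The het call of Prtn3 was lost with a pseudocount of 0.1 (4.32, adjusted p = 0.984) and with no filter on low values (3.36, adjusted p = 0.143), where more genes are tested; with 1 library left out it ran from 2.98 to 3.64. Wild-type Prtn3 passed with TMM scaling (3.22, adjusted p = 0.00529) and in edgeR (2.22), and ran from 2.60 to 3.22 with 1 library left out. Wild-type Elane did not pass with the 18 wild-type libraries alone (2.89, adjusted p = 0.0728) or in DESeq2 (3.26, adjusted p = 0.687), and ran from 2.45 to 3.50 with 1 library left out; het Elane ran from 2.79 to 4.09. The genotype average turned negative for Ctsg in edgeR (-0.15), in DESeq2 (-0.53) and without libraries under 15000 counts (-0.35), and for Prtn3 in edgeR (-0.43) and DESeq2 (-0.45). For Elane it ran from -0.30 to 0.18 with 1 library left out. By population, edgeR turned the genotype difference of Prtn3 in MPP3 (-0.58), of Mpo (-0.052) and Prtn3 (-0.059) in MEP, and the CMP minus MEP difference of wild-type Elane (-0.23). The MEP genotype difference of Elane was 1.30 without wild-type MEP replicate 3. edgeR called 31 genes for the genotype average against 5 in limma, 16 against 4 for het CMP and 87 against 11 for wild-type CMP. The causes of these changes were not tested. Runs without wild-type MEP replicate 3 in MEP, without het HSC replicate 2 in HSC, with wild-type MPP3 replicate 3 alone and of the fold bounds with 1 library left out were chosen after seeing the data. No paired analysis was possible because the column numbers are shared by no groups in the labels. Depth limits what can be said of HSC and MPP levels, where 3 counts amount to 40.0 CPM in het HSC and 97.1 CPM in wild-type MPP3.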
